A study of Mus musculus with 4 samples.

Results

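Neurexins, neuroligins and leucine-rich repeat transmembrane (Lrrtm) proteins hold the 2 sides of a synapse together. Their mRNAs are described here in the medial prefrontal cortex (mPFC) of mice through 9 genes, the neurexins Nrxn2 and Nrxn3, the neuroligins Nlgn1, Nlgn2 and Nlgn3, and Lrrtm1, Lrrtm2, Lrrtm3 and Lrrtm4. The genes were found by symbol, and each had 1 of the 17778 rows of the deposited expression table. The mice were males of the C57BL/6 strain that entered the study as juveniles. Tissue was taken later, after the period of stress or control and the behavior tests. Control mice (2 libraries) were not stressed. CUMS mice (2 libraries) had gone through chronic unpredictable mild stress, a changing schedule of mild stressors, and only stressed animals that had become depression-like in the behavior tests were sequenced. The CUMS group is therefore a vulnerable subset, and stressed mice without that state were not part of it. The study asked which mRNAs differ in the mPFC between depression-like and control mice.

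Neurexins sit in the presynaptic membrane and reach across the cleft to several kinds of postsynaptic partner. Each neurexin gene makes long alpha and short beta proteins from separate promoters, and its RNA is heavily spliced. Neuroligins bind neurexins from the postsynaptic side. Neuroligin 1 is found mainly at excitatory synapses, neuroligin 2 mainly at inhibitory synapses, and neuroligin 3 at both. Lrrtm proteins are postsynaptic neurexin partners of excitatory synapses and help to hold AMPA receptors there. All these proteins are abundant in neurons of the cerebral cortex.

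The values were RPKM, read numbers scaled to the length of the gene and to the reads of the library. Both libraries of a group had already been averaged by the authors, so that each gene had 1 control mean and 1 CUMS mean. With no value of a single library, the variation between mice was unknown and no test between the conditions was made. The 95% intervals are counting intervals. They come from about 7473842 counted fragments in each control library and 7485030 in each CUMS library, numbers that were estimated from the lowest values of the table, and they cover counting error only. The deposited values are bulk values, in which fewer cells of a type and less RNA per cell cannot be told apart.

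All 9 genes were well expressed, between 6.70 and 89.01 RPKM, and none differed by more than 1.5-fold between the group means. The mean was lower in CUMS in 7 genes and higher in 2 genes, Nlgn1 and Lrrtm4. The median log2 ratio of CUMS over control was -0.08, against -0.02 over the 14257 genes whose larger mean reached 0.5 RPKM. A fold above 1.5 was seen in 7.20% of these genes, and in 1.60% of the 9397 genes that reached 5 RPKM as all 9 adhesion genes did. A lower mean in CUMS was seen in 52.3% of genes of at least 5 RPKM, against 77.8% of the 9 genes, where a single gene makes 11.1%.

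A fold above 1.1 was reached by 5 of the 9 genes (55.6%). Nrxn2, Lrrtm1, Lrrtm2 and Lrrtm3 were lower in CUMS, and Nlgn1 was higher. The same fold was reached by 48.5% of genes of at least 0.5 RPKM and by 37.9% of genes of at least 5 RPKM, of which 20.7% were lower and 17.1% were higher. The counting interval of the log2 ratio lay clear of 0 in the same 5 genes, against 29.4% of genes of at least 0.5 RPKM and 35.3% of genes of at least 5 RPKM. Nrxn2 and Lrrtm1 lay close to the limit, and after the groups had been centred on the median log2 ratio the fold of 1.1 was passed by 3 genes, Nlgn1, Lrrtm2 and Lrrtm3. The share of all genes past this fold was not computed after the centring.

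**Figure D1:**
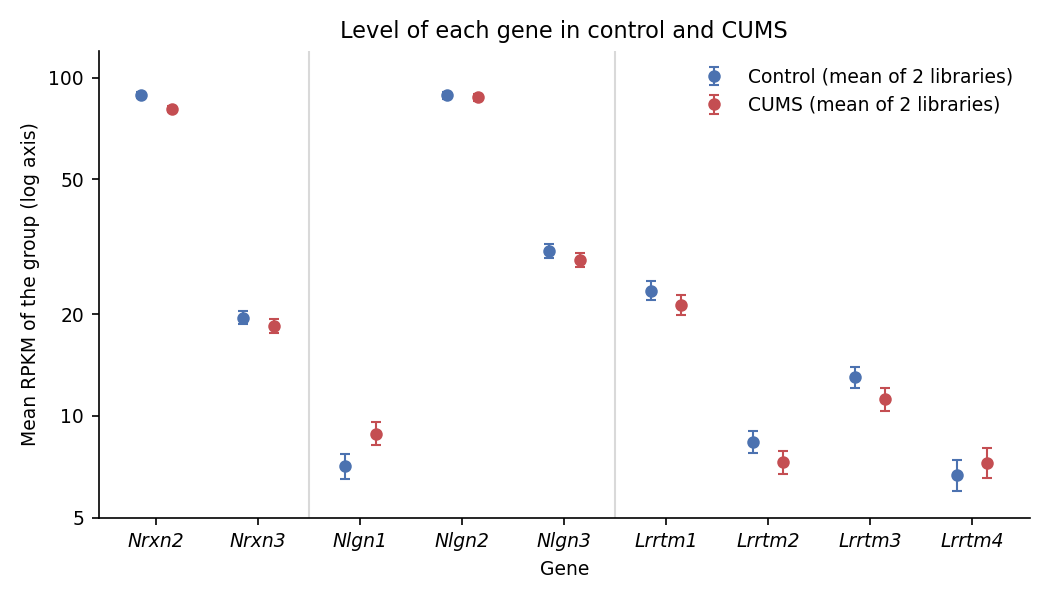
Mean RPKM of the 9 genes (log axis) in control and CUMS, each point the authors' mean of 2 libraries, with the 95% Poisson interval of its estimated fragments. Nrxn2 and Nlgn2 stand highest at 80.69 to 89.01 RPKM. The intervals of the 2 groups do not overlap for Nrxn2 and for Nlgn1.

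**Figure D2:**
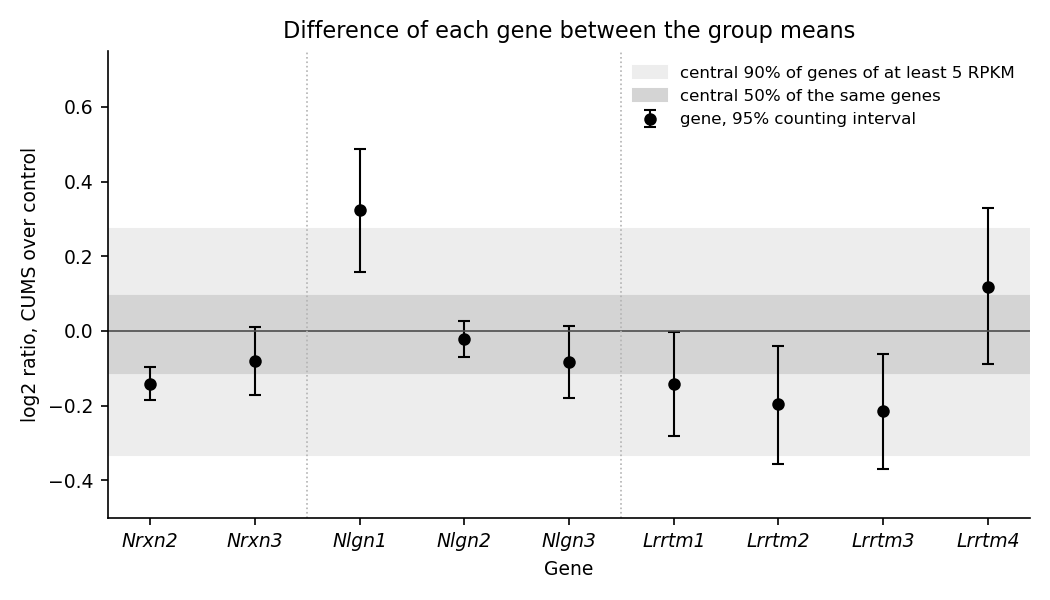
The log2 ratio of CUMS over control of each gene with its 95% counting interval, over the central 50% (dark band, -0.11 to 0.09) and 90% (light band, -0.33 to 0.27) of the 9397 genes of at least 5 RPKM. Nlgn1 at 0.32 is the only point outside the light band.

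Nrxn2 was the higher of the neurexins (gene 18190, GRCm38 chromosome 19, 6418756 to 6533217, plus strand). Its mean was 89.01 RPKM in control against 80.69 RPKM in CUMS, a log2 ratio of -0.14 (counting interval -0.19 to -0.10) that rested on 8755 and 7949 fragments. The Poisson intervals of the levels, 87.2 to 90.9 RPKM in control and 78.9 to 82.5 RPKM in CUMS, did not overlap. Among genes of at least 5 RPKM, 36.6% had an absolute log2 ratio as large, so that a difference of this size was common.

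Nrxn3 covers 1612235 bases of chromosome 12 (gene 18191, 88722701 to 90334935, plus strand), the longest span of the 9 genes. Its mean was 19.485 RPKM in control against 18.435 RPKM in CUMS, a log2 ratio of -0.08 with a counting interval that included 0 (-0.17 to 0.01). Nrxn2 made up 82.0% of the summed RPKM of Nrxn2 and Nrxn3 in control and 81.4% in CUMS, so that the division between them was nearly the same in both groups. Their sum was 108.495 RPKM in control against 99.125 RPKM in CUMS, a log2 ratio of -0.13 (-0.17 to -0.09), and Nrxn2 carried most of it. On the opposite strand, Slc22a12 and Gm14964 share 682 (4.94%) and 207 exonic bases with Nrxn2, and Gm37980 shares 439 with Nrxn3 (3.48%). The level of Slc22a12 was low in both groups (0.19 and 0.115 RPKM). The table has a single value per gene, and alpha and beta neurexins or splice forms could not be told apart.

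Nlgn2 was the highest neuroligin (gene 216856, chromosome 11, 69823123 to 69837784, minus strand) and differed least of all 9 genes. Its mean was 88.74 RPKM in control against 87.43 RPKM in CUMS, a log2 ratio of -0.02 (-0.07 to 0.03). It rested on 6677 and 6589 fragments, and 88.3% of genes of at least 5 RPKM had an absolute log2 ratio as large or larger. Nlgn3 (gene 245537, chromosome X, 101299179 to 101321350, plus strand) was 30.68 RPKM in control against 28.955 RPKM in CUMS. Its log2 ratio was -0.08 (-0.18 to 0.01). In GENCODE M21 a transcript unit named Gm21986 runs along Nlgn3 on the same strand and shares 3823 exonic bases with it, 41.2% of all exonic bases of Nlgn3, so that reads of both could have been counted as Nlgn3.

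Nlgn1 (gene 192167, chromosome 3, 25421808 to 26332866, minus strand) had the largest difference of the 9 genes and the only clear difference upward. Its mean was 7.095 RPKM in control against 8.875 RPKM in CUMS, a ratio of 1.25 and a log2 ratio of 0.32 (0.16 to 0.49), from 544 and 681 fragments. Among genes of at least 5 RPKM, 8.34% had an absolute log2 ratio as large. As the lowest neuroligin, Nlgn1 made up 5.61% of the summed neuroligin RPKM in control and 7.09% in CUMS. The sum itself was 126.515 RPKM in control against 125.26 RPKM in CUMS, a log2 ratio of -0.01 (-0.06 to 0.03), since the lower means of Nlgn2 (a difference of -1.31 RPKM) and Nlgn3 (-1.725 RPKM) outweighed the gain of 1.78 RPKM in Nlgn1. The antisense RNA gene A830092H15Rik shares 1229 exonic bases with Nlgn1 (9.16%), and the use of strand in counting was not stated, so that reads of both strands could not be separated there.

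The start regions of Nlgn1 and Nlgn2 are shown because these neuroligins stood at opposite ends, Nlgn2 high and nearly equal between the groups, Nlgn1 low and higher in CUMS. The RefSeq (GRCm38.p6) start regions matched here were 2 for Nlgn1 and 1 for Nlgn2. Each line is the 250 bases before a matched start on the strand of the gene, 5′ to 3′, with CG pairs in capitals. The first region of Nlgn1 is chr3:26331910-26332159, the second is chr3:26153987-26154236, and that of Nlgn2 is chr11:69837785-69838034, all on the minus strand. Both Nlgn1 regions lie inside the span of the gene, whose outer end on this strand is 26332866. The region before that end was not among those matched. The Nlgn2 region lies directly before the span of its gene, so that the regions of the 2 genes are not alike in position.
Nlgn1 first start: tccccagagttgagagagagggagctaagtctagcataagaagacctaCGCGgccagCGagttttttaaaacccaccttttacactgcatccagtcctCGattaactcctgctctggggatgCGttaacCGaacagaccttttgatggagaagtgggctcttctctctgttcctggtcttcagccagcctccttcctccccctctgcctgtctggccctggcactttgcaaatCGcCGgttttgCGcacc
Nlgn1 second start: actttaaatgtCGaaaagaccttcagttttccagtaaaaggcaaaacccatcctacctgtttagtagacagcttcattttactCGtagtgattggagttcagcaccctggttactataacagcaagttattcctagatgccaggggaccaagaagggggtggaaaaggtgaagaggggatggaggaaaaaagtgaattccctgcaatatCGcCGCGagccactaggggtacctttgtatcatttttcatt
Nlgn2 start: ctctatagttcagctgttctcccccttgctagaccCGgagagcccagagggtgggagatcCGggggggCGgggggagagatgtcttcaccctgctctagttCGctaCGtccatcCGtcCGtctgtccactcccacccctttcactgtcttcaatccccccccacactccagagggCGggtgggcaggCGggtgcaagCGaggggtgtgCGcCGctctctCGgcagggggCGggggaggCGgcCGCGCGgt
The Nlgn2 region holds 18 CG pairs and 67.6% G and C. The regions of Nlgn1 hold 9 and 5 CG pairs, with 53.6% and 43.6% G and C. The median of 32851 such regions of the RefSeq table was 6 CG pairs, and 78.3% of them held fewer than the region of Nlgn2. In 10 start regions of 6 of the 9 genes that were matched in the table, the cyclic AMP response element TGACGTCA was in 0 and the E-box CACGTG was in 0, on either strand. TATAAA was in 1 region, the first of Lrrtm4. Of all 32851 regions, 1.55% held the first of these motifs, 6.02% the second and 12.4% the third. The RPKM values do not say which start was used.

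Among the Lrrtm genes, 3 of 4 were lower in CUMS and passed the fold of 1.1, and Lrrtm4 was higher and did not. Their summed RPKM was 51.565 in control and 47.065 in CUMS, a log2 ratio of -0.13 (-0.21 to -0.05). Lrrtm1 (gene 74342, chromosome 6, 77229210 to 77259915, plus strand) was the highest, with 23.48 RPKM in control against 21.28 RPKM in CUMS. Its log2 ratio of -0.14 had an interval that only just missed 0 (-0.28 to -0.003). Lrrtm3 (gene 216028, chromosome 10, 63928497 to 64090255, minus strand) had the lowest ratio of the 9 genes. It was 13.015 RPKM in control against 11.21 RPKM in CUMS, a log2 ratio of -0.22 (-0.37 to -0.06) from 749 and 646 fragments.

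Lrrtm2 (gene 107065, chromosome 18, 35209003 to 35215024, minus strand) was 8.37 RPKM in control against 7.305 RPKM in CUMS. Its log2 ratio was -0.20 (-0.36 to -0.04), close to that of Lrrtm3. Lrrtm4 (gene 243499, chromosome 6, 80018858 to 80810162, plus strand), which binds glypicans as well as neurexins, was 6.70 RPKM in control against 7.27 RPKM in CUMS. The log2 ratio of 0.12 had a wide interval (-0.09 to 0.33), since only 363 and 395 fragments stood behind it. The share of Lrrtm4 in the summed Lrrtm RPKM was 13.0% in control and 15.4% in CUMS. An antisense unit, Gm4409, shares 1543 exonic bases with Lrrtm4 (25.1%), so that this value is uncertain as well.

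Lrrtm1, Lrrtm2 and Lrrtm3 each lie inside an alpha-catenin gene, on its opposite strand. Alpha-catenins link cadherins to the actin cytoskeleton. Of the exonic bases of the 3 genes, 0, 95 and 0 were shared with exons of Ctnna2, Ctnna1 and Ctnna3, so that by GENCODE M21 spliced catenin RNA has almost no bases in common with them. Ctnna2, around Lrrtm1, was 34.22 RPKM in control against 36.72 RPKM in CUMS, a log2 ratio of 0.10 (0.01 to 0.19), opposite in direction to Lrrtm1. Ctnna1, around Lrrtm2, was 16.6 RPKM in control against 15.075 RPKM in CUMS, a log2 ratio of -0.14 (-0.28 to -0.002), in the direction of Lrrtm2. Ctnna3, around Lrrtm3, was near absent, with 0.09 RPKM in control against 0.105 RPKM in CUMS (5 and 6 fragments).

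The order of the 9 levels was nearly the same in both groups. In control Nrxn2 and Nlgn2 came first with overlapping Poisson intervals, followed by Nlgn3, Lrrtm1, Nrxn3, Lrrtm3, Lrrtm2, Nlgn1 and Lrrtm4. The intervals of neighbours overlapped for Nrxn2 and Nlgn2 and for Nlgn1 and Lrrtm4, and for no other pair. In CUMS Nlgn2 stood above Nrxn2 without an overlap, the ratio of Nrxn2 over Nlgn2 being 1.00 in control and 0.923 in CUMS. Nlgn1 passed Lrrtm2 and stood seventh, and the last pair, Lrrtm2 and Lrrtm4, overlapped at 7.305 and 7.27 RPKM. Lengths of 2536 to 6914.24 bases entered these RPKM values. With another length for the same reads a level would change, whereas the ratio of CUMS over control would not. Whether the ratio would hold if the reads of other transcripts were counted was not tested.

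Around these genes, 69 genes of partners, regulators and other synaptic adhesion proteins were listed, of which 64 reached 0.5 RPKM. Their median log2 ratio was -0.01, with 33 genes lower and 31 higher in CUMS. A fold above 1.1 was seen in 13 lower and 11 higher genes (37.5% of the 64), against 48.5% of all genes of at least 0.5 RPKM. A fold above 1.5 was seen in 3 lower genes, Cbln4, C1ql2 and Mdga1, and in 1 higher gene (6.25%), against 7.20% of all, so that both shares were near or below the background.

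Of 13 extracellular neurexin partners, 8 were lower and 5 higher, with a median of -0.05. Cbln4, a secreted cerebellin that binds neurexins, was 4.405 RPKM in control against 1.58 RPKM in CUMS, a log2 ratio of -1.48 (-1.91 to -1.07). C1ql2, a secreted C1q-like protein of synapses, was 1.15 RPKM in control against 0.45 RPKM in CUMS, from 36 and 14 fragments, with a log2 ratio of -1.35 (-2.37 to -0.44). Its relative C1ql3 went the other way, with 49.66 RPKM in control against 73.305 RPKM in CUMS, a log2 ratio of 0.56 (0.49 to 0.64), just under the fold of 1.5.

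Of 5 extracellular regulators of neuroligins and Lrrtm proteins, 4 reached 0.5 RPKM, and their median was -0.001. Mdga1, a membrane-anchored protein that covers neuroligin 2 and keeps neurexin off it, had 8.24 RPKM in control against 3.845 RPKM in CUMS. Its log2 ratio was -1.10 (-1.27 to -0.94), while Nlgn2 itself was at -0.02. Mdga2 was 1.96 RPKM in control against 1.91 RPKM in CUMS, a log2 ratio of -0.04 (-0.28 to 0.20). Gpc4, a glypican that binds Lrrtm4, had a log2 ratio of 0.25 (-0.04 to 0.53), with an interval that included 0.

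Inside the cell none of the partners passed the fold of 1.5, which 1.60% of genes of at least 5 RPKM did. Of 6 cytosolic neurexin partners 4 were higher, with a median of 0.05. The fold of 1.1 was passed by 1 lower and 2 higher genes, against 37.9% of genes of at least 5 RPKM. Counting intervals lay clear of 0 in 1 lower and 3 higher genes, against 35.3%. Lin7c and Lin7b, scaffold proteins of the Cask complex at the presynaptic membrane, had log2 ratios of -0.23 (-0.38 to -0.09) and 0.22 (0.07 to 0.37), and Sdcbp, which binds the neurexin tail, was at 0.19 (0.10 to 0.27). The 8 cytosolic partners of neuroligins and Lrrtm proteins had a median of 0.02 and reached at most -0.15 (-0.25 to -0.05), in Magi2, a scaffold that binds neuroligins. Magi1, a related scaffold, was at -0.06 (-0.17 to 0.04).

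The genes of 3 proteins that regulate neurexin splicing each had a higher mean in CUMS, as 46.6% of all genes of at least 0.5 RPKM had. Khdrbs2 was 1.87 RPKM in control against 3.135 RPKM in CUMS, a log2 ratio of 0.75 (0.15 to 1.37) from 38 and 64 fragments. Khdrbs1 and Khdrbs3 were at 0.10 (0.01 to 0.20) and 0.08 (-0.01 to 0.16). Caspr proteins, which belong to the neurexin superfamily, were lower in 5 of 5 genes that reached 0.5 RPKM (7 were listed), with a median of -0.11. Of all genes of at least 0.5 RPKM 53.2% had a lower mean, and only 2 of the 5 passed the fold of 1.1. Cntnap2, a Caspr protein that gathers potassium channels along axons, was at -0.30 (-0.42 to -0.18), Cntnap3 at -0.22 (-0.60 to 0.16) and Cntnap1 at -0.11 (-0.17 to -0.05).

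Other adhesion families showed no common direction. The 16 leucine-rich repeat adhesion genes of at least 0.5 RPKM (17 were listed) were divided into 8 lower and 8 higher with a median of 0.005. Slitrk1 was at 0.23 (0.13 to 0.33), Lrrc4c at 0.21 (0.10 to 0.32) and Lrfn4 at -0.19 (-0.33 to -0.06). Among 9 expressed genes of 10 receptor tyrosine phosphatases, latrophilins and teneurins, the median was -0.01. Tenm4 was at -0.21 (-0.31 to -0.11), Lphn2 at 0.20 (0.08 to 0.32) and Lphn3 at -0.14 (-0.30 to 0.02).

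**Figure D3:**
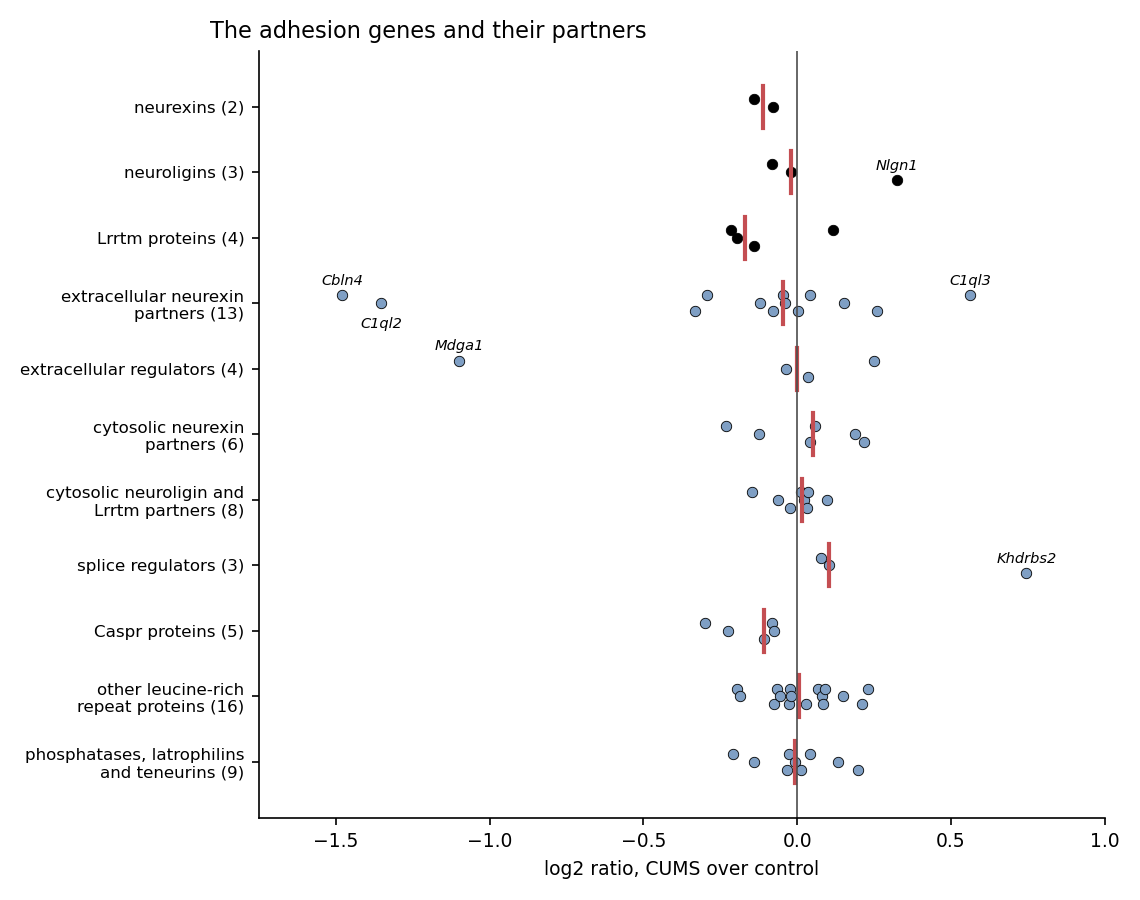
The log2 ratio of CUMS over control (x axis) of each gene of at least 0.5 RPKM, in rows by list, with the number of genes in brackets and the median as a red bar. The 9 adhesion genes (black) lie between -0.22 and 0.32, whereas Cbln4, C1ql2 and Mdga1 lie below -1.

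Several lists of markers of cell types and neighboring regions differed between the groups. Pan-neuronal genes were higher in 9 of 10 (median 0.09, summed level 2830 RPKM in control against 3049 RPKM in CUMS). Markers of neocortical excitatory neurons were higher in 8 of 8 (median 0.34, 2261 and 2785 RPKM), and those of GABAergic neurons were lower in 6 of 6 (median -0.63, 310.2 and 193.8 RPKM). Markers of oligodendrocytes were lower in 8 of 8 (median -0.58, 1872 and 1269 RPKM), of oligodendrocyte precursors in 4 of 5 (-0.30, 118.0 and 96.1 RPKM), of striatum in 8 of 8 (-0.29, 505.5 and 411.2 RPKM) and of septum and hypothalamus in 9 of 9 (-1.70, 122.5 and 40.0 RPKM). The study's own list of changed genes, drawn from these libraries, holds some of the GABAergic and oligodendrocyte markers and all those of septum and hypothalamus but Zic2, so that for these genes the direction was fixed by the choice and is no independent evidence. Without them, 3 of 3 GABAergic markers (median -0.60) and 5 of 5 oligodendrocyte markers (-0.45) were lower, and Zic2 was at -0.98. Astrocyte, microglia and vascular markers had medians of 0.05, 0.08 and -0.10, with summed levels of 966.2 and 915.8, 131.6 and 140.2, and 78.1 and 64.4 RPKM. Each of these lists was split. Astrocyte markers were lower in 3 and higher in 4 (-0.41 to 0.12), microglia markers lower in 2 and higher in 4 (-0.01 to 0.54), and vascular markers lower in 4 and higher in 2 (-0.61 to 0.17). None of these marker genes was at 0, with the neocortical markers at 9.28 RPKM or more in both groups, and the part of cell or tissue makeup in the values of the 9 genes was not tested. Measured against the median of the pan-neuronal genes, every log2 ratio is lower by 0.09. Only Nlgn1 and Lrrtm4 could have changed direction by this, and both stayed higher in CUMS. The log2 ratios were then -0.22 for the neurexins, -0.11 for the neuroligins and -0.22 for the Lrrtm genes by their sums, and Nlgn1 was at 0.23 and Lrrtm4 at 0.02.

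**Figure D4:**
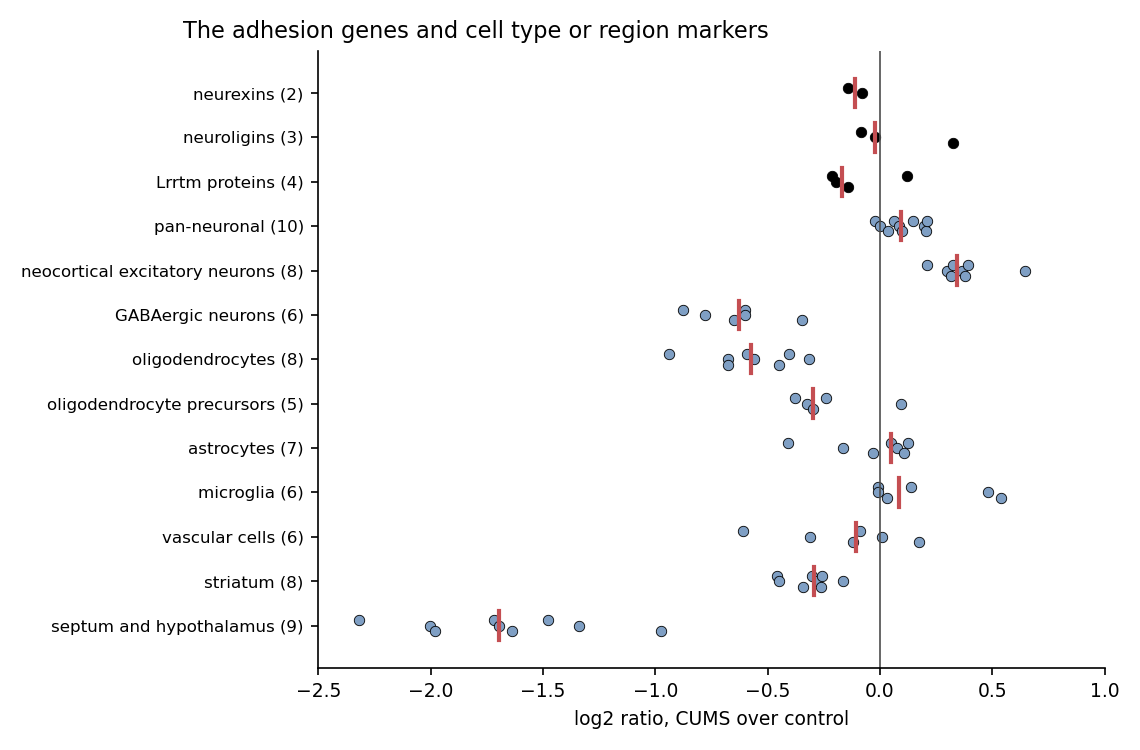
The log2 ratio of CUMS over control (x axis) of the 9 adhesion genes (black) and of marker genes of cell types and regions (blue), in rows by list, with the number of genes in brackets and medians as red bars. Excitatory neuron markers lie to the right of 0 in 8 of 8 genes.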

How the data were processed

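Total RNA of the mPFC was isolated from each mouse, and mRNA captured with oligo(dT) beads was read from both ends of each fragment (HiSeq). According to the methods of the study, reads were trimmed with SolexaQA and aligned to mm10 with TopHat 1.0.12 and Bowtie 0.11.3, and uniquely aligned reads were counted per gene. Gene annotation and strand use are not given in the sources used here. The deposited values are RPKM, averaged by the authors over the 2 libraries of a group, with the gene length used. A value of 0.01 stands in for 0 (590 control and 619 CUMS means). The authors' own log2 ratio, direction and NOISeq probability per gene are also in the table and were not used. Groups were taken from sample titles, since the treatment text is the same for all 4 samples. That each library came from 1 mouse is not stated.

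Ratios of the group means were computed without a pseudocount. Fragments were estimated from genes under 1000 bases with a product of mean and length under 350, as the step (66.9 in control, 66.8 in CUMS) of which most products were whole multiples. Of 406 control and 392 CUMS values, 87.9% and 87.5% lay within 0.15 of a whole multiple. The study gives higher read numbers, and a larger depth would narrow the intervals. Intervals of log2 ratios are Clopper-Pearson, those of levels Poisson, and those of sums a normal approximation in place of the planned exact interval (scipy 1.17.1). The depth estimate and intervals were tested on simulated data with counting error only and a set depth near the estimate. Such data cannot show whether the depth estimated for the real libraries is right. limma, planned for values of single libraries, was not run.

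Named were the 9 genes, overlapping genes that share exonic bases with them, alpha-catenins, and up to 3 genes per partner list with the largest absolute log2 ratio. 1 gene that this rule names is not reported here. Members, lists and markers were chosen with earlier results of these data known, and marker values without the study's listed genes were added after the values were seen. Spans are RefSeq GRCm38.p6 (17731 of 17778 genes matched) and exons GENCODE M21, both of the build mm10.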

Additional observations from a re-analysis of the deposited data

How the results depend on the processing

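Of 47 alternative values for family sums, counts and the median, 41 kept within the counting interval or within 1.5 times of the count. The largest shift came from centring on the pan-neuronal genes, which lowers all log2 ratios by 0.09. The sums then moved to -0.22 (neurexins), -0.11 (neuroligins) and -0.22 (Lrrtm genes), and 8 instead of 5 genes had a counting interval clear of 0. The median over all genes of at least 0.5 RPKM was then lower as well, at -0.11. Centring on the median of all genes left 3 instead of 5 genes past 1.1-fold. With the fragment numbers divided by 2, 2 instead of 5 intervals lay clear of 0, those of Nrxn2 and Nlgn1, which follows from the wider intervals. With the numbers doubled, 7 lay clear of 0, with Nrxn3 and Nlgn3 in addition. The share of all genes was not computed under any of these settings, so that these counts have no background beside them. Of 45 values for single genes, 42 stayed within their intervals, and none of the 9 genes changed direction under the scalings and pseudocounts tried. A pseudocount cannot turn the direction of a ratio. The neuroligin sum, whose interval included 0, turned from -0.01 to 0.00075 when centred on the median of genes of at least 0.5 RPKM. The filter on low values could not matter, since all 9 genes passed it, and its unchanged values are among the 41. The count past 1.5-fold could not leave 0 either, as the largest absolute log2 ratio was 0.32 and the largest shift 0.09. Pseudocounts of 0.5 or 1 RPKM are small beside the summed levels and could hardly move them. These values are among the 41 too. So is the median log2 ratio of the 9 genes, which moved from -0.08 to -0.18 with the pan-neuronal centring. No paired analysis was possible because the values analysed here are group means, and for the same reason no library was left out.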

Other observations

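Nlgn1 and Lrrtm4, the genes with a higher mean in CUMS, have spans of 911059 and 791305 bases, and Nrxn3, the longest, was slightly lower. Over the 117 genes of at least 5 RPKM that span 500 kb or more, the median log2 ratio was 0.08, and 77 were higher and 40 lower in CUMS (65.8% of genes with unequal means were higher). Genes from 100 to 500 kb had a median of -0.0005 (1171 genes, 49.8% higher), genes from 20 to 100 kb a median of -0.01 (3829 genes, 48.0% higher) and genes under 20 kb a median of -0.01 (4266 genes, 46.2% higher). These values describe genes of the same libraries, which are not independent replicates, and the split by span was made after the values of the 9 genes had been seen. Markers of excitatory neurons were also higher in CUMS, and their part in this pattern was not tested.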
